A study of Mus musculus with 8 samples.

Results

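The genes described here are 9 that carry cAMP, calcineurin and phosphatase signalling in sperm: *Adcy10*, *Adcy3*, *Prkaca*, *Prkar1a*, *Prkar2a*, *Ppp3cc*, *Ppp3r2*, *Ppp1cc* and *Camk4*. They were chosen by name, as the rows of the RNA-seq tables that bear these symbols, out of 23343 genes in those tables, and all 9 had enough reads to be tested. RNA-seq was performed on pachytene spermatocytes (PS), which are in meiotic prophase, and round spermatids (RS), the haploid cells that follow meiosis, of adult C57BL/6 mice lacking both *Rnf8* and *Scml2* (*Rnf8;Scml2*-dKO). Every RNA sample therefore carried the double knockout, and wild-type RNA was not analysed here. H3K27ac, a histone mark of active promoters and enhancers, was measured by ChIP-seq in PS and RS of wild-type adult C57BL/6 mice, so the RNA and the histone mark of a stage came from different genotypes. Each stage had 2 replicates per assay, 8 samples in all. The cells were isolated from testis by sedimentation through a gradient of albumin, and for the dKO cells the testes of a single male were enough to provide PS and RS.

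Sperm leave the testis unable to fertilize and gain motility and fertilizing ability through cAMP. The bicarbonate-sensitive soluble adenylyl cyclase makes cAMP in the sperm tail, protein kinase A (PKA) responds to it, and A-kinase anchoring proteins hold PKA on the fibrous sheath and other structures of the tail. Phosphatases oppose this kinase: the calcium-dependent phosphatase calcineurin has a catalytic and a regulatory subunit made mainly in the testis, and protein phosphatase 1 (PP1) has a sperm form made from *Ppp1cc*. CaM kinase IV, a calcium-dependent kinase of the nucleus, is encoded by *Camk4*, whose locus also yields the testis protein calspermin. These genes are transcribed in meiotic and haploid germ cells, long before their proteins act in sperm.

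Between PS and RS, 4 of the 9 genes rose and none fell by at least 1.5-fold. *Prkar2a*, a regulatory subunit of PKA, rose 19.6-fold, *Camk4* rose 11.1-fold, *Adcy10*, the soluble adenylyl cyclase, rose 2.37-fold, and *Adcy3*, an adenylyl cyclase of the membrane, rose 1.67-fold from a low level. The other 5 differed by less than 1.5-fold. Of all 14647 genes tested, 30.4% were called higher and 27.6% lower in RS, 58% in either direction (edgeR's quasi-likelihood test, Benjamini-Hochberg adjusted p under 0.05 and at least 1.5-fold). The 4 of 9 called higher and 0 of 9 called lower are read against these shares. In these bulk samples, fewer cells of a type and less RNA per cell cannot be told apart.

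The RNA libraries held 9655405 to 12289694 reads on genes. Both knocked-out genes were still read: *Rnf8* had 93 and 110 reads in PS and 61 and 50 in RS, and *Scml2* had 40 and 92 reads in PS and 44 and 98 in RS. With no wild-type RNA beside them, these reads do not check the genotype labels. Markers of the stages mostly followed the labels, since 8 of 8 round spermatid markers were higher in RS and 5 of 8 pachytene markers were lower there. Their summed RPKM (reads scaled to transcript length and to library size) was 524 to 881 in PS and 14172 to 14961 in RS for the spermatid list. For the pachytene list it was 897 to 943 in PS and 387 to 449 in RS. The other 3 pachytene markers were not called. Among them, *Sycp1* overlapped between stages (62.2 and 26.1 RPKM in PS, 28.0 and 37.4 in RS), and *Ccna1* had its higher pair in RS (76.7 and 108 in PS, 120 and 113 in RS). Markers of other testis cells differed between the stages as well. All 5 Leydig markers were lower in RS, with a summed RPKM of 546 to 727 in PS and 42.4 to 68.0 in RS. Spermatogonial markers were higher in RS for 4 of 6 genes, with sums of 18.9 to 32.2 in PS and 37.8 to 39.3 in RS. *Cd68* and *Csf1r*, which mark macrophages, were also higher in RS, where the sum over 4 peritubular and macrophage markers was 10.8 to 12.3, against 2.49 to 3.24 in PS. Of 5 Sertoli markers tested, only *Wt1* was higher in RS, and the sum was 32.2 to 70.7 in PS and 22.8 to 40.1 in RS. No marker on these lists was at 0 in all libraries. The part of these cells in the results below was not tested. The spermatid list was also read in PS, at 524 to 881 summed RPKM. How much spermatid RNA the low PS values below hold, such as those of *Prkar2a* and *Camk4*, was not tested either. The pachytene list was likewise read in RS, at 387 to 449 summed RPKM, and how much spermatocyte RNA the RS values hold was not tested.

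**Figure D1:**
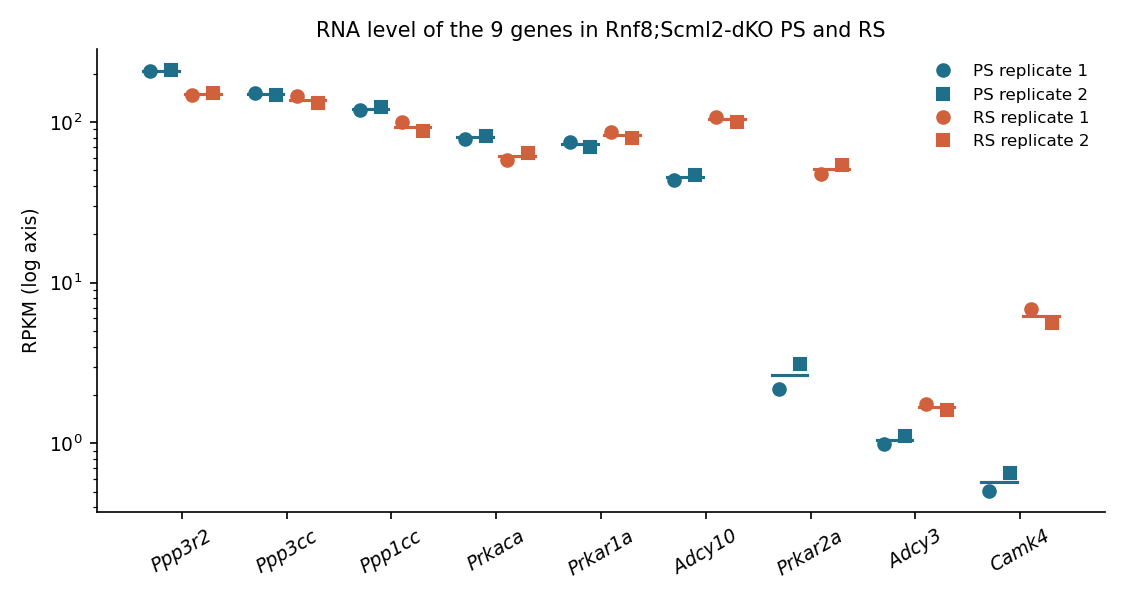
RNA level of each of the 9 genes in *Rnf8;Scml2*-dKO PS and RS, as RPKM on a log axis, with a point per replicate and a bar at the mean of 2 replicates. *Prkar2a* and *Camk4* show the widest gap between stages, while *Ppp3cc* lies between 131 and 151 RPKM in all 4 samples.

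Levels per transcript length spanned a wide range. In PS the order of mean RPKM was *Ppp3r2*, *Ppp3cc*, *Ppp1cc*, *Prkaca*, *Prkar1a*, *Adcy10*, *Prkar2a*, *Adcy3* and *Camk4*, from 209 ± 1.61 (SD, n = 2) for *Ppp3r2* to 0.577 ± 0.102 (SD, n = 2) for *Camk4*. In RS it was *Ppp3r2*, *Ppp3cc*, *Adcy10*, *Ppp1cc*, *Prkar1a*, *Prkaca*, *Prkar2a*, *Camk4* and *Adcy3*, from 150 ± 2.68 (SD, n = 2) to 1.69 ± 0.0933 (SD, n = 2). The replicates of neighbouring genes in either order did not overlap. For each of the 9 genes the RPKM of PS and RS did not overlap either, but 83.6% of all genes tested showed the same, and with 2 samples against 2 the smallest exact permutation p is 0.333.

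*Adcy10* lies on the plus strand of chromosome 1 of mm10, from 165485183 to 165576773. The PS replicates had an RPKM of 43.4 and 47.0, the RS replicates 108 and 99.8. Both RS values were more than 2-fold above both PS values, and the log2 fold change was 1.24 ± 0.12 (SE; adjusted p = 4.96e-05 in edgeR). *Adcy10* made up most adenylyl cyclase RNA at either stage: of the RPKM summed over the 10 adenylyl cyclase genes, it held 87.6% and 88.3% in PS and 93.5% and 93.1% in RS. The stretch upstream of its start is shown because this gene is the main source of cAMP in sperm. It is taken from RefSeq (build GRCm38.p6, the assembly of mm10), read 5′ to 3′ on the strand of the gene, from 250 to 42 bases before the start (chr1:165484933-165485141). Capitals mark matches to a fixed set of short motifs.
Adcy10 upstream: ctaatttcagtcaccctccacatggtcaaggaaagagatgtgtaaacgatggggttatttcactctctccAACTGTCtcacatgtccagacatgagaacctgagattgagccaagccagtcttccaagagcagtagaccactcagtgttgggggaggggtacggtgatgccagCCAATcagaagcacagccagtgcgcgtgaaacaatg
The capitals are a MYB core (AACNGNC, from -180 to -174 relative to the start) and a CCAAT box (from -77 to -73). Among 32817 RefSeq promoters scanned over 250 bases on both strands, 27.7% held the MYB core and 33.8% a CCAAT box, so both are common.

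*Adcy3*, on the plus strand of chromosome 12 from 4133397 to 4213524, is an adenylyl cyclase best known from olfactory neurons. It had 48 and 53 reads in PS and 106 and 83 in RS, or an RPKM of 0.986 and 1.11 in PS and 1.75 and 1.62 in RS. The RS values were the higher pair but remained below 2 RPKM. Its log2 fold change of 0.74 ± 0.25 (SE; adjusted p = 0.0286 in edgeR) did not hold in every setting: the adjusted p was 0.11 in DESeq2, and it was 0.0711 without PS replicate 1, 0.141 without RS replicate 1 and 0.0874 without RS replicate 2. The reads fell on the transcript with the downstream start, except for 24 of the 83 reads of RS replicate 2, which were assigned to transcripts with the upstream start. Its 3′ end overlaps *Cenpo* on the opposite strand, which had 432 and 478 reads in PS and 89 and 79 in RS. The libraries did not mark strand, so reads of this overlap cannot be assigned with certainty.

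PKA is a tetramer in which regulatory subunits hold catalytic subunits inactive until cAMP binds. Among the genes of the regulatory subunits, *Prkar2a* and the low *Prkar1b* rose, and *Prkar1a* and *Prkar2b* did not pass the test. *Prkar1a*, which encodes the type I regulatory subunit RIα (chromosome 11, plus strand, 109650949 to 109669648), had an RPKM of 75.2 and 70.3 in PS and 87.0 and 79.7 in RS. The RS values were slightly above those of PS, and the log2 fold change of 0.24 ± 0.12 (SE; adjusted p = 0.108 in edgeR) did not pass the test. *Prkar2a*, which encodes the type II subunit RIIα (chromosome 9, plus strand, 108692143 to 108749511), had an RPKM of 2.17 and 3.14 in PS and 47.4 and 54.1 in RS. It had 100 and 141 reads in PS and 2680 and 2576 in RS, a log2 fold change of 4.29 ± 0.21 (SE; adjusted p = 3.29e-06 in edgeR), with the stages far apart. The part of spermatids in its PS reads was not tested. The other regulatory subunits were low: *Prkar1b* rose from 0.800 and 1.30 RPKM to 4.75 and 5.16, and *Prkar2b* had 1.65 and 1.77 in PS and 2.09 and 2.28 in RS, with an adjusted p of 0.177 in edgeR. Of the RPKM summed over these 4 genes, *Prkar2a* therefore held 2.72% and 4.11% in PS and 33.6% and 38.3% in RS, while *Prkar1a* went from 94.2% and 91.9% to 61.6% and 56.4%. The sum itself was 79.8 and 76.5 in PS and 141 in both RS replicates.

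**Figure D2:**
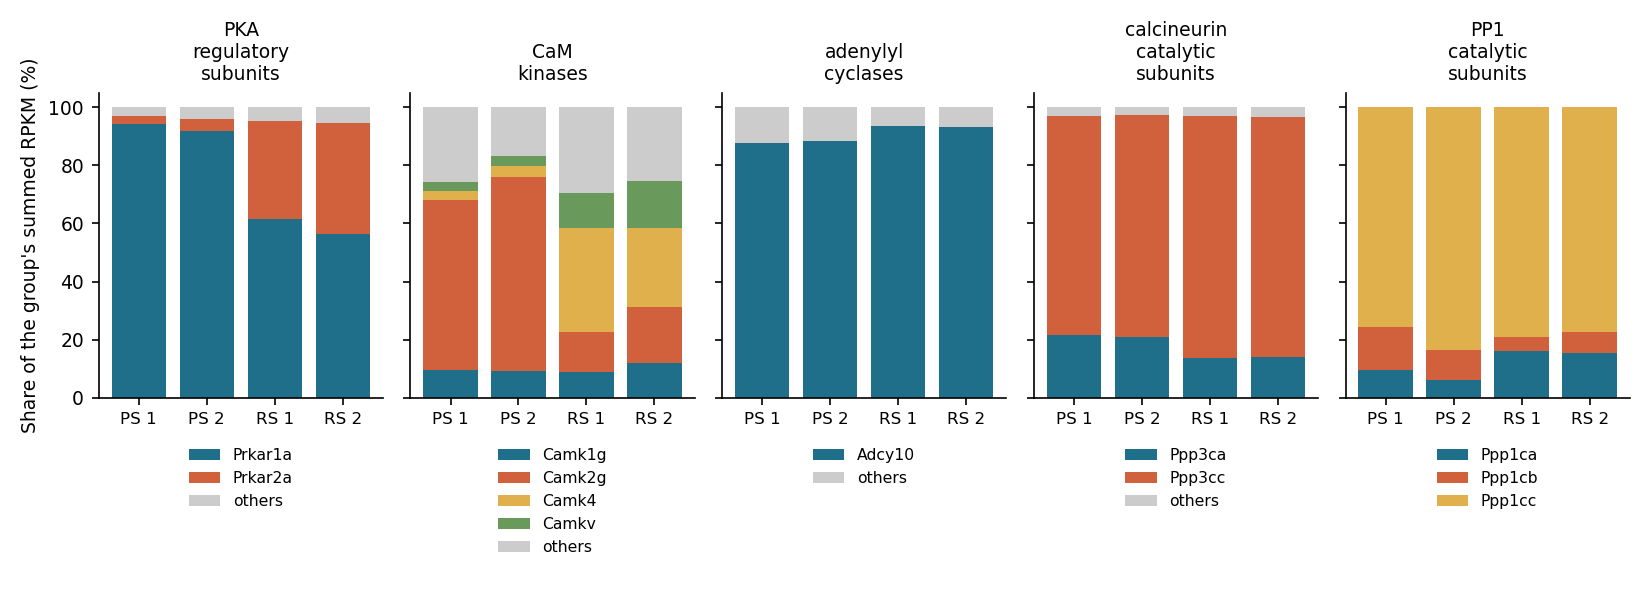
Share of each gene in the RPKM summed over its group, in percent, for each *Rnf8;Scml2*-dKO library, with genes that never reach 10% joined as others. *Prkar2a* goes from at most 4.11% of PKA regulatory subunit RNA in PS to at least 33.6% in RS, and *Camk4* from at most 3.88% of CaM kinase RNA to at least 27.3%, while *Adcy10*, *Ppp3cc* and *Ppp1cc* hold most of their groups in all 4 libraries.

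The upstream sequences of *Prkar1a* and *Prkar2a* are set side by side because these subunits differed so much in their change, and because a cAMP response element (TGACGTCA), bound by CREB and, in spermatids, by CREM, was among the motifs searched. Both are RefSeq sequences of build GRCm38.p6 on the plus strand, from 250 to 42 bases before the start (chr11:109650699-109650907 and chr9:108691893-108692101), with motif matches in capitals.
Prkar1a upstream: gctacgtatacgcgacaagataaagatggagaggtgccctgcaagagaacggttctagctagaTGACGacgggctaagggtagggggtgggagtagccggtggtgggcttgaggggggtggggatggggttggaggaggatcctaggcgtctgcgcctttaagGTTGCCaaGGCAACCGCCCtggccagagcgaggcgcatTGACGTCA
Prkar2a upstream: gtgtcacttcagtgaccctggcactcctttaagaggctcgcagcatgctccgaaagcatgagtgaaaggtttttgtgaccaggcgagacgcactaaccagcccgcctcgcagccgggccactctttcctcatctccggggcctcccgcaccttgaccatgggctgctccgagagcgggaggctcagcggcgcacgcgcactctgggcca
*Prkar1a* held the full element from -49 to -42, the last 8 bases of its line. The element was found in 1.55% of the 32817 promoters. *Prkar1a* also held a further TGACG at -187, which is the core of the element and by itself occurred in 17.7% of promoters, a GTTGCC (RFX motif, 10.4%) at -87 with its reverse complement at -79, an AACNGNC (MYB core) at -76 and a GC box (GGGCGG, 32.7% of promoters, here on the opposite strand) at -74. The last 3 overlap in part. A CCAAT box on the opposite strand lay at -27, past the end of the printed line. *Prkar2a* held none of the 7 motifs searched, which also included TATAAA (in 12.4% of promoters). *Prkar2a* was CpG-rich, with 24 CpG in 250 bases against a median of 6 over all promoters, and *Prkar1a* had 19.

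*Prkaca* encodes the catalytic subunit Cα of PKA and lies on the plus strand of chromosome 8. It has 2 annotated starts, at 83972978 and 83976883, with a common end at 83996442. The downstream start gives the form that is found in sperm, with its own first exon, and the upstream start gives the form of somatic cells. Reads were assigned almost wholly to the transcript with the downstream start: 2009 and 2018 reads in PS and 1808 and 1689 in RS, against 0 and 31 in PS and 11 and 16 in RS for the transcript with the upstream start. The downstream start held at least 98.5% of the reads of *Prkaca* in every library. Since the isoforms share all but their first exon, this split rests on few positions and on the authors' estimate. Summed over both, the RPKM was 78.5 and 82.1 in PS and 57.9 and 64.4 in RS. The RS values were the lower pair, by 1.28-fold, with a log2 fold change of -0.35 ± 0.12 (SE; adjusted p = 0.0344 in edgeR), under the 1.5-fold threshold. The adjusted p was 0.0798 in DESeq2, 0.117 without PS replicate 2, 0.438 without RS replicate 1 and 0.181 without RS replicate 2. *Prkacb*, the gene of the other catalytic subunit, had 2.09 and 1.10 RPKM in PS and 2.23 and 1.94 in RS, so that *Prkaca* held 96.3% to 98.7% of catalytic subunit RNA.

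Upstream sequences of both starts are shown because they are the 2 promoters of this gene and differ in composition. Each is from RefSeq, build GRCm38.p6, plus strand, from 250 to 42 bases before the start (chr8:83972728-83972936 and chr8:83976633-83976841), with capitals on motif matches.
Prkaca upstream start: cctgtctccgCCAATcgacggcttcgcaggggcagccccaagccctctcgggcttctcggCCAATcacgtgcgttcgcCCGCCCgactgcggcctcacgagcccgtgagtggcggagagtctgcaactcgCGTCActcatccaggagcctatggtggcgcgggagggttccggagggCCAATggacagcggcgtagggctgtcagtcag
Prkaca downstream start: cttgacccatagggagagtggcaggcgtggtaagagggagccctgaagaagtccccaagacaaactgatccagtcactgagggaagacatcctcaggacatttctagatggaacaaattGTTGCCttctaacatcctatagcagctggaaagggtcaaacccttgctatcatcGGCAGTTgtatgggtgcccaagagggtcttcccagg
Over 250 bases, the promoter of the upstream start had 25 CpG and a GC content of 68.8%, and that of the downstream start 2 CpG and 50.8%, beside medians of 6 CpG and 52.4% over all promoters. The upstream start held CCAAT boxes, GC boxes and the TGACG core on the opposite strand at -120 and at -6, the latter past the end of the printed line. The downstream start held a GTTGCC (RFX motif) at -131 and a MYB core at -77, on the opposite strand, and no CCAAT, GC or TATAAA box. A match of letters is a description and does not show that a factor binds.

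Calcineurin combines a catalytic subunit with a calcium-binding regulatory subunit, and in testis these are encoded mainly by *Ppp3cc* and *Ppp3r2*. *Ppp3cc* (chromosome 14, minus strand, 70217898 to 70289449) had an RPKM of 151 and 148 in PS and 145 and 131 in RS. The stages lay close together, with a log2 fold change of -0.08 ± 0.12 (SE; adjusted p = 0.589 in edgeR) that turned to 0.10 without RS replicate 2. *Ppp3r2* (chromosome 4, minus strand, 49678747 to 49681983) was the most abundant of the 9 genes, with 208 and 210 RPKM in PS and 148 and 152 in RS. Its RS values were lower by 1.36-fold, a log2 fold change of -0.44 ± 0.11 (SE; adjusted p = 0.00736 in edgeR), again under 1.5-fold. That adjusted p was 0.144 without RS replicate 1 and 0.123 without RS replicate 2. *Ppp3r2* lies inside *Grin3a* on the same strand, but *Grin3a* had only 5 and 13 reads in PS and 5 and 7 in RS, against 5327 to 7062 for *Ppp3r2*.

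The genes of the somatic subunits were at lower levels. *Ppp3cc* held 75.4% and 76.3% of the RPKM of the 3 catalytic genes in PS and 83.5% and 82.6% in RS. *Ppp3ca*, which held most of the rest, fell from 43.0 and 40.6 RPKM to 23.7 and 22.4 (log2 fold change -0.82, adjusted p = 0.000746 in edgeR). *Ppp3r2* held at least 95.9% of regulatory subunit RNA in every library, although *Ppp3r1* rose from 2.17 and 1.21 RPKM to 6.29 and 5.52. By the similarity of RPKM over the 4 RNA libraries, the genes closest to *Ppp3r2* were *Rpl18* and *Arl3*, with a root mean square difference of 0.0402 and 0.0567 in log2(RPKM + 1). Those closest to *Ppp3cc* were *Ndufa7* (0.0793) and *Insl6* (0.0979).

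*Ppp1cc* (chromosome 5, plus strand, 122158279 to 122175269) encodes the γ form of PP1, whose splice form PP1γ2 is the PP1 of sperm. The files hold a single transcript for this gene, so the splice forms were not separated. Its RPKM was 119 and 123 in PS and 99.7 and 87.4 in RS. The RS pair was lower by 1.26-fold, a log2 fold change of -0.33 ± 0.13 (SE; adjusted p = 0.0439 in edgeR), under the 1.5-fold threshold. The adjusted p was 0.094 in DESeq2, 0.063 with the size factors of DESeq2 in edgeR, 0.0563 with the replicate number as a block, 0.119 without PS replicate 2, 0.144 without RS replicate 1 and 0.555 without RS replicate 2. *Ppp1cc* held 75.8% and 83.6% of PP1 catalytic RNA in PS and 79.1% and 77.3% in RS. Within the remainder, *Ppp1cb* fell from 23.1 and 15.1 RPKM to 5.90 and 8.21, and *Ppp1ca* rose from 15.0 and 9.16 to 20.4 and 17.5.

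Thus *Ppp3r2*, *Prkaca* and *Ppp1cc* passed an adjusted p of 0.05 with lower values in RS, without reaching 1.5-fold, where 32.1% of all genes tested passed with lower values at any size and 64.5% passed in either direction. With the replicate number as a block, *Ppp3r2* (adjusted p = 0.0111 in edgeR) and *Prkaca* (0.0423) still passed and *Ppp1cc* (0.0563) did not.

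*Camk4* (chromosome 18, plus strand, 32939041 to 33195767) had 71 and 89 reads in PS and 1179 and 812 in RS, or an RPKM of 0.505 and 0.650 in PS and 6.83 and 5.59 in RS. The stages did not approach each other, and the log2 fold change was 3.47 ± 0.21 (SE; adjusted p = 4.87e-06 in edgeR). A single transcript stands for the locus, so reads of calspermin, which uses the last exons, are not separated from those of the kinase. *Camk4* held 3.22% and 3.88% of CaM kinase RNA in PS and 36.0% and 27.3% in RS. *Camk2g*, a subunit of CaM kinase II and the most abundant of the list in PS, fell from 9.17 and 11.2 RPKM to 2.59 and 3.94.

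**Figure D3:**
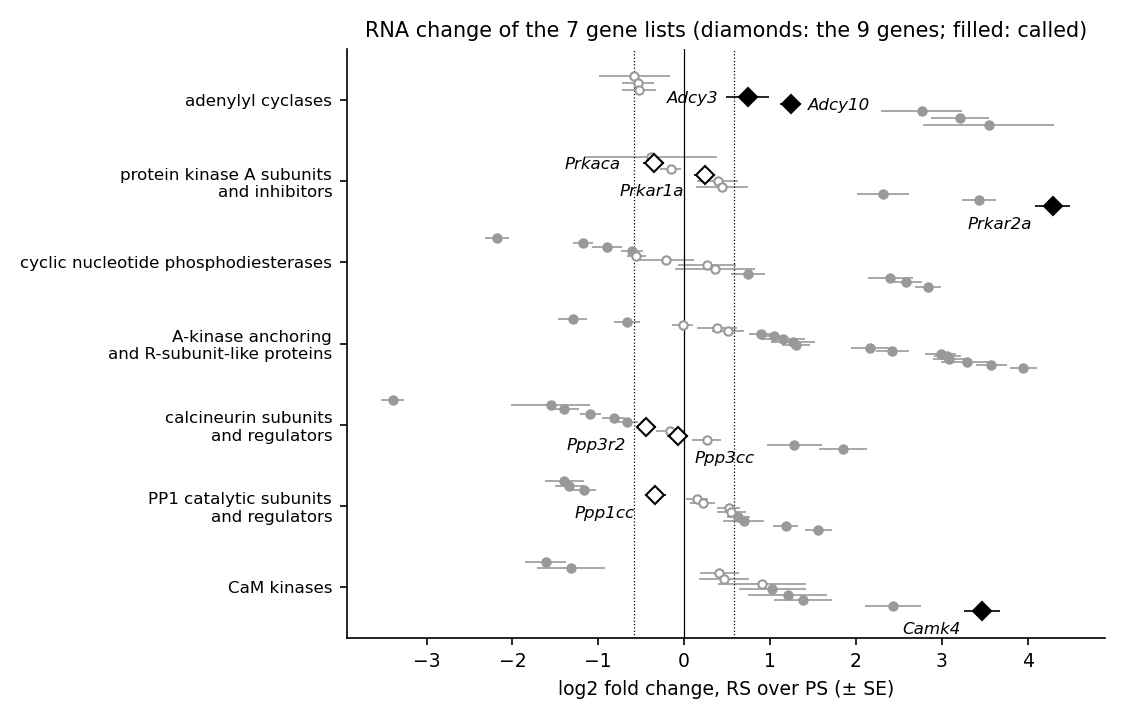
Log2 fold change of RS over PS in *Rnf8;Scml2*-dKO cells for the tested genes of 7 lists, with SE as bars, the 9 genes as diamonds, and filled symbols for genes called (adjusted p under 0.05 and at least 1.5-fold, the dotted lines). *Prkar2a* at 4.29 and *Camk4* at 3.47 are at the right end of their lists, and the calcineurin list is the only list with more genes called lower than higher.

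The wider pathway was read from 7 lists around the 9 genes. Outside the 9, 72 genes of these lists were tested, and 32 were called higher and 17 lower in RS, beside 30.4% and 27.6% of all genes. Their median log2 fold change was 0.49 and that of all genes 0.01. The counts and medians per list that follow include the 9 genes, with *Adcy10*, *Adcy3*, *Prkar2a* and *Camk4* among the higher calls. The A-kinase anchoring proteins and proteins with the docking domain of PKA regulatory subunits contributed the most higher calls, with 13 of 18 higher and 2 lower (median 1.28). *Akap4*, the main protein of the fibrous sheath, rose from 41.2 and 50.2 RPKM to 721 and 654, and *Akap1*, which tethers PKA to mitochondria, from 18.2 and 25.0 to 264 and 239. *Akap8* (14.7 and 17.1 to 5.82 and 6.82) and *Akap11* (11.2 and 8.82 to 5.74 and 6.51) fell.

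Among the adenylyl cyclases, 5 of 8 tested were higher and none lower (median 0.99). *Adcy2* (0 and 0.0641 to 0.390 and 0.383 RPKM) and *Adcy7* (0.131 and 0.195 to 1.35 and 1.36) rose the most, from a low level. PKA subunits and inhibitors had 3 of 9 higher and none lower (median 0.39). *Pkib*, an inhibitor of the catalytic subunit, rose from 1.16 and 1.43 RPKM to 14.8 and 12.4. Phosphodiesterases, which degrade cyclic nucleotides, had 4 of 12 higher and 4 lower (median 0.03). *Pde1a* (13.7 and 14.8 to 116 and 98.2) and *Pde4a* (5.86 and 8.50 to 41.6 and 42.6) rose. *Pde8a*, the most abundant of them in PS, fell from 190 and 189 to 82.2 and 80.9, and *Pde10a* from 23.1 and 25.2 to 4.79 and 5.60.

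The calcineurin list had 2 of 12 higher and 6 lower (median -0.55). *Calm2*, one of the genes for calmodulin, fell from 717 and 622 RPKM to 58.4 and 65.3, the largest fall of the list, and its value is uncertain where reads are shared with sequences like it. *Rcan2*, a regulator of calcineurin, fell from 0.563 and 0.428 to 0.154 and 0.209. *Ppp3r1* and *Rcan3* (0.702 and 0.373 to 1.27 and 1.29) were the 2 that rose. The PP1 list had 4 of 12 higher and 3 lower (median 0.37). *Gsk3b*, a kinase that acts on a PP1 inhibitor, rose from 6.30 and 6.19 RPKM to 20.0 and 15.8, *Ppp1r42* from 32.9 and 26.7 to 65.9 and 66.5, and *Ppp1r8*, a nuclear inhibitor of PP1, fell from 19.5 and 16.4 to 6.83 and 6.99. *Gsk3a*, on the same list and above *Gsk3b* at both stages, fell from 51.6 and 55.4 to 21.9 and 24.5. The CaM kinase list had 5 of 10 higher and 2 lower (median 0.97). *Camkv* rose from 0.492 and 0.564 to 2.26 and 3.33, and *Camk2d* fell from 0.927 and 0.567 to 0.316 and 0.283.

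H3K27ac was then examined at the start sites of the 9 genes in wild-type cells, by the highest fold enrichment of a called interval within 2 kb. Fold enrichment is the pileup of fragments plus 1, divided by the library's background plus 1, and the background was 1.43 and 0.824 fragments in PS and 1.46 and 0.723 in RS. The libraries held 41095 and 49434 intervals in PS and 74919 and 45863 in RS. All 9 genes had an interval within 2 kb in both PS replicates and 8 had an interval in both RS replicates. With an interval in all 4 samples there were 8. Among the genes tested for RNA, 81% had an interval in both PS replicates, 75.8% in both RS replicates and 73.6% in all 4 samples, which is the background for these counts. *Adcy3* was the exception, with no interval in RS replicate 2.

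**Figure D4:**
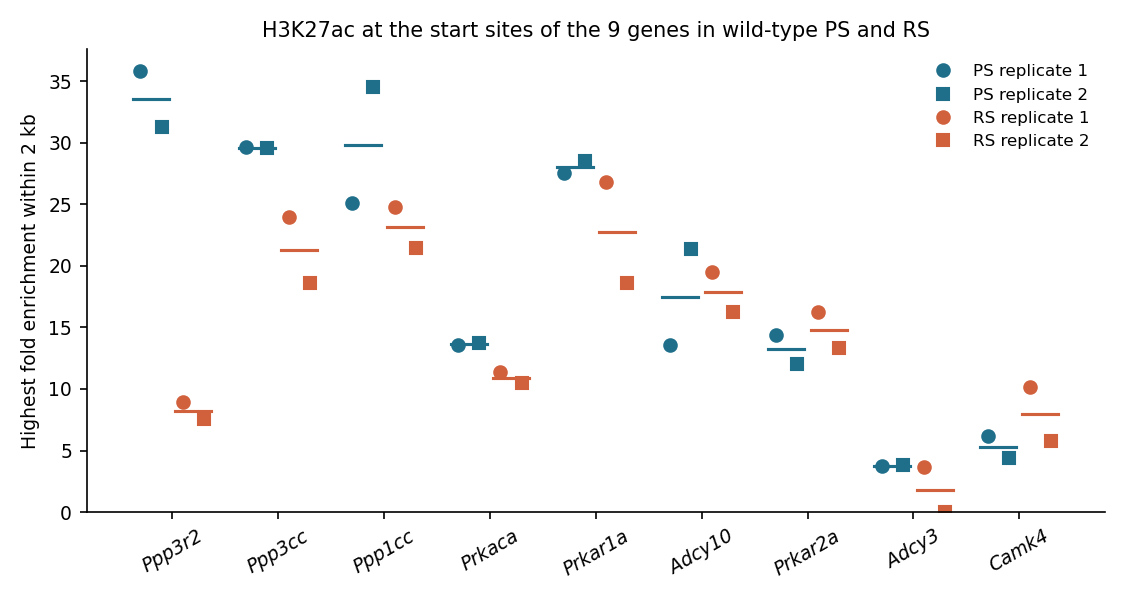
Highest H3K27ac fold enrichment within 2 kb of a start site of each gene in wild-type PS and RS, on a linear axis from 0, with a point per replicate and a bar at the mean of 2 replicates. *Ppp3r2* is at 31.2 and 35.8 in PS and at 7.55 and 8.95 in RS, the widest gap of the 9, and *Adcy3* is at 0 in RS replicate 2, where no interval was called.

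*Ppp3r2* had the strongest H3K27ac of the 9 in the mean over PS, and it fell in RS. Its fold enrichment was 35.8 and 31.2 in PS and 8.95 and 7.55 in RS, so the stages were more than 3-fold apart. The difference was -1.90 ± 0.17 (SE; adjusted p = 0.0154 in limma) in log2(1 + fold enrichment). Of 13699 promoters tested, 15.8% were called lower and 5.23% higher in RS, and *Ppp3r2* was the only 1 of the 9 called, in either direction. The median difference over all promoters was -0.43, so *Ppp3r2* lay 1.47 below it. After quantile normalization, which moved that median to -0.04 and gave 2257 promoters higher and 2036 lower in place of 717 and 2163, the difference was -1.54 (adjusted p = 0.00695). The adjusted p was 0.214 without PS replicate 1, 0.181 without PS replicate 2, 0.0258 without RS replicate 1 and 0.0544 without RS replicate 2. By mean level, *Ppp3r2* stood above 93.1% of tested promoters in PS and above 34.5% in RS. Its RNA, measured in dKO cells, was lower by 1.36-fold, and the mark, measured in wild-type cells, by 4.06-fold in mean fold enrichment.

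The intervals called at this promoter also differed in extent. In PS 1 interval covered the start, 1834 bp long in replicate 1 and 2004 bp in replicate 2, with its summit 222 and 238 bp downstream of the start. PS replicate 2 also had an interval of 153 bp further into the gene, with a fold enrichment of 4.38. In RS replicate 1 there was an interval of 1289 bp over the start, with a fold enrichment of 8.95, and another of 2046 bp further into the gene, with 8.54. In RS replicate 2 there were 6 intervals of 146 to 633 bp, and none of them covered the start itself. Because this promoter carried the largest change in the mark, its upstream stretch is shown, as RefSeq sequence of build GRCm38.p6 on the minus strand, from 250 to 42 bases before the start (chr4:49682025-49682233).
Ppp3r2 upstream: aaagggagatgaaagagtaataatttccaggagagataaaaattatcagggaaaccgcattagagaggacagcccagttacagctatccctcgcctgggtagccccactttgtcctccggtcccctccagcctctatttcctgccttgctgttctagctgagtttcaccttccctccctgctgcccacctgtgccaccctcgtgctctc
It has no capitals because none of the 7 motifs matched. The promoter held 9 CpG in 250 bases and a GC content of 55.6%, beside medians of 6 CpG and 52.4% over all promoters.

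The other 8 differed less. *Prkar2a*, whose RNA rose 19.6-fold, reached a fold enrichment of 14.4 and 12.1 in PS and 16.3 and 13.4 in RS. The stages overlapped, and the difference was 0.15 ± 0.20 (SE; adjusted p = 0.584 in limma), with a value 0.58 above the median of all promoters. *Adcy10* also overlapped between stages, with 13.6 and 21.4 in PS and 19.5 and 16.3 in RS (difference 0.06 ± 0.27, SE; adjusted p = 0.890 in limma). *Camk4* was weak, with 6.17 and 4.38 in PS and 10.2 and 5.81 in RS, overlapping as well (difference 0.49 ± 0.36, SE, with adjusted p = 0.343 in limma). Its highest interval in PS replicate 2 had a −log10 q of 3.51. With a −log10 q of at least 5 required, no interval of *Camk4* remained there, and the difference was 1.70 ± 1.07 (SE, with adjusted p = 0.289 in limma). For these 3 genes, H3K27ac was thus called within 2 kb of the start in both PS replicates of wild-type mice. The difference between stages did not pass the test. The differences of *Adcy10* and *Camk4* also lay above the median of all promoters, by 0.49 and 0.92. After quantile normalization the differences were 0.47 for *Adcy10*, 0.55 for *Prkar2a* and 1.03 for *Camk4* (adjusted p = 0.140, 0.0518 and 0.117 in limma).

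In 6 genes, *Ppp3r2* included, both RS values were below both PS values, where 58.1% of all tested promoters showed the same. None of the 9 had both RS values above both PS values, as 14.6% of promoters did. *Ppp3cc* had 29.6 in both PS replicates and 24.0 and 18.6 in RS (adjusted p = 0.126 in limma, and 0.0432 without RS replicate 1). *Ppp1cc* had 25.1 and 34.5 in PS and 24.8 and 21.5 in RS (adjusted p = 0.274). *Prkar1a* had 27.6 and 28.5 in PS and 26.9 and 18.6 in RS (adjusted p = 0.314 in limma), and *Prkaca* 13.6 and 13.7 in PS and 11.4 and 10.4 in RS (adjusted p = 0.249 in limma). For *Prkaca* the higher value of its 2 starts was taken in each library. The 13.7 of PS replicate 2 came from the downstream start, and the values of the other libraries came from the upstream start. *Adcy3* had 3.70 and 3.84 in PS, near the lowest values called in those libraries, and 3.66 and no interval in RS (adjusted p = 0.323, and 0.0206 without RS replicate 1). After quantile normalization the sign of the difference turned to higher in RS for *Adcy3* (0.10), *Ppp1cc* (0.046), *Prkaca* (0.10) and *Prkar1a* (0.086).

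**Figure D5:**
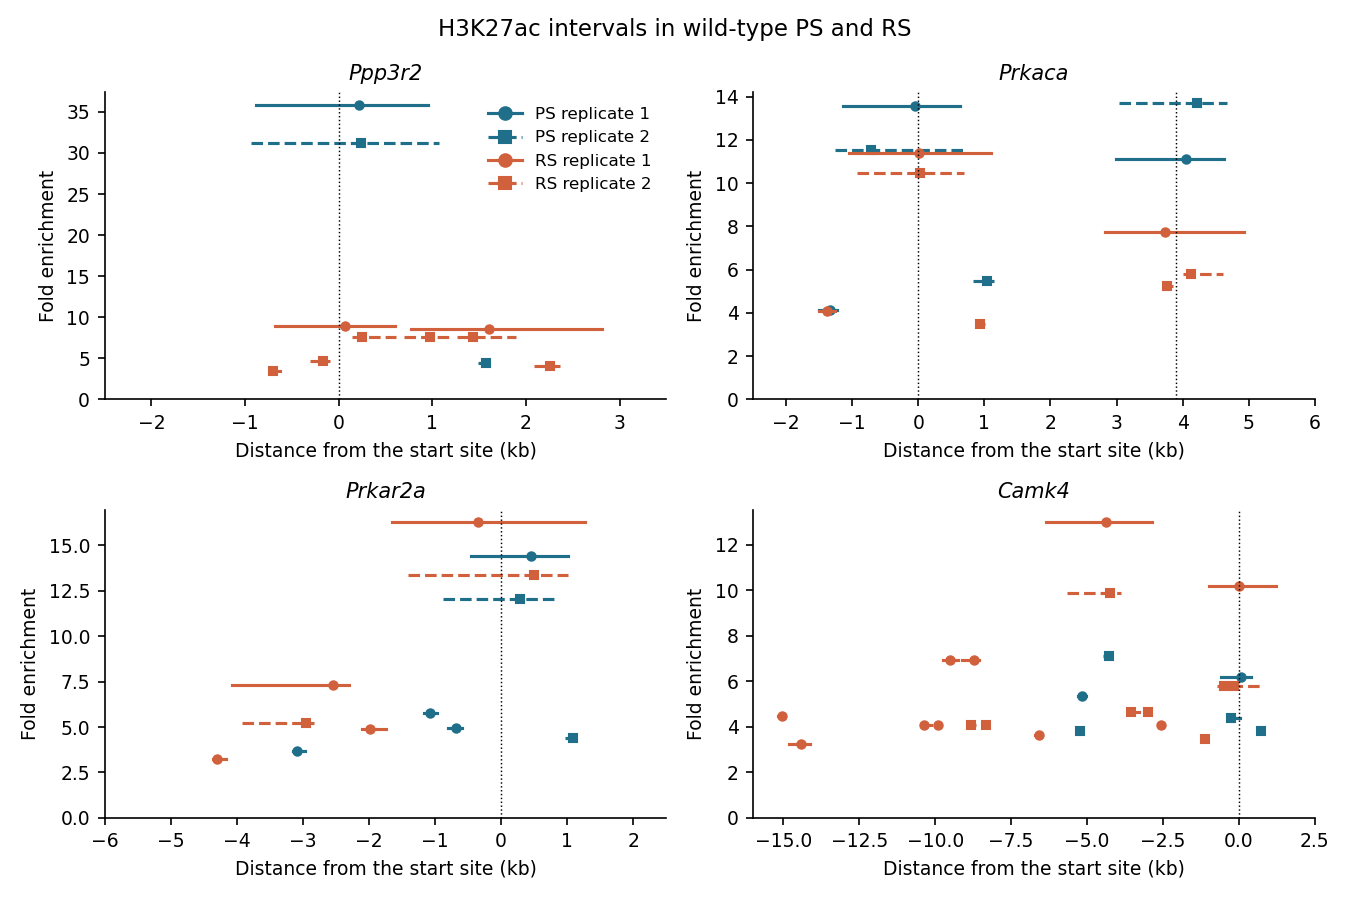
H3K27ac intervals called in each wild-type library around the starts of 4 genes, as horizontal bars from start to end at the height of their fold enrichment, with a symbol at the summit, plotted against the distance from the start (dotted lines; the upstream start for *Prkaca*). The bars of PS stand far above those of RS at *Ppp3r2*, and RS bars outnumber PS bars upstream of *Camk4*.

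At *Prkaca* both starts carried the mark, and they could be read apart. Within 1 kb of the upstream start, the highest fold enrichment was 13.6 and 11.5 in PS and 11.4 and 10.4 in RS, and an interval covered this start in all 4 libraries. Within 1 kb of the downstream start, to which nearly all RNA reads were assigned, it was 11.1 and 13.7 in PS and 7.73 and 5.81 in RS. The RS values there were the lower pair, and in RS replicate 2 no interval covered the start. The mark lay over the upstream start in every wild-type library, while few reads were assigned to its transcript in the dKO libraries.

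Upstream of *Camk4*, the files assigned 1 and 2 intervals in PS and 9 and 5 in RS. The highest of them lay about 4 to 5 kb before the start, with a fold enrichment of 5.35 and 7.13 in PS and 13.0 and 9.87 in RS, above that of the promoter itself in PS replicate 2 and in both RS replicates. These RS values exceeded both PS values. The RS intervals were 3491 and 1758 bp long and overlapped. Those of PS were 249 and 323 bp long, lay apart from each other, with summits at -5171 and -4271 bp, and both fell within the longer RS interval. The other upstream interval of PS replicate 2, 146 bp long with its summit at -5244 bp and a fold enrichment of 3.84, overlapped that of PS replicate 1. At *Prkar2a*, an upstream interval with its summit at -2540 bp relative to the start reached a fold enrichment of 7.32 in RS replicate 1, and an overlapping interval of RS replicate 2 had 5.22. There the PS libraries had 3.70 in replicate 1 and none in replicate 2. *Adcy10* had an upstream interval at about 2.4 kb in both RS replicates and in neither PS replicate, with 6.10 and 5.22. Regions with an interval in both RS replicates and in neither PS replicate were also found further upstream of *Camk4* (6.92 and 4.06), in an intron of *Ppp3cc* (4.48 and 5.81) and far upstream of *Prkaca* (4.07 and 3.48, assigned to *Asf1b* as well), the latter genes without a rise in RNA. After overlapping intervals of the 4 libraries were joined, these were 4 of the 68 regions of the 9 genes (5.88%), against 8.31% of 90470 regions over the genome. The opposite pattern, both PS replicates and neither RS replicate, was found in 0 of 68, against 6.37% over the genome.

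*Ppp1cc* had the most intervals assigned, with 12 and 16 in PS and 21 and 9 in RS, many of them in its introns and some assigned to *Ccdc63* as well. Near its last exons, 14143 bp from the start in RS replicate 1, an interval reached a fold enrichment of 4.12 and 4.93 in PS and 11.4 and 8.71 in RS, so that RS was the higher pair while the promoter was not. These differences away from start sites were not tested.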

How the data were processed

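RNA-seq (PS and RS of *Rnf8;Scml2*-dKO mice) and H3K27ac ChIP-seq (PS and RS of wild-type mice) were each done in 2 replicates. RNA was amplified and made into libraries by a protocol that does not mark strand. The authors aligned RNA reads to mm10 with STAR (version 2.4.2a in the submitters' processing notes), kept unique alignments with at most 2 mismatches, and deposited estimated counts per RefSeq transcript, in whole numbers, with RPKM beside them. For H3K27ac the authors aligned reads with Bowtie (1.1.1) and called intervals per replicate with MACS2 (2.1.0.20140616). In the deposited peak lists, every summit has its pileup signal, its fold enrichment as a ratio to the library's background, and −log10 p and q values. These were called per library without correction for depth between libraries, so levels are relative to each library's own background. No comparison columns of the authors were used.

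Rows were summed per gene. Genes that reached 10 counts in 2 or more samples were tested with edgeR 4.0.16 (quasi-likelihood, TMM), and called at an adjusted p under 0.05 and 1.5-fold. The highest fold enrichment within 2 kb of a start was compared as log2(1 + fold enrichment) with limma 3.58.1, over genes with an interval in at least 2 samples, and called at an adjusted p under 0.05. Adjusted p-values are Benjamini-Hochberg values over all genes tested. Tests ran in R 4.3.3 (with DESeq2 1.42.0), tables in Python 3.11.15 with pandas 2.3.3, numpy 2.4.6 and scipy 1.17.1, and plots in matplotlib 3.10.9. The study's methods call the replicates of either assay biological, and the dKO cells of a preparation came from a single male, but whether PS and RS of the same number came from the same male is not given in the sources used here. With 2 samples in a group, a missed test is weak evidence of no difference. Each read was 8.14e-06% to 1.04e-05% of an RNA library, and for H3K27ac the total depth is not given in the sources used here.

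On simulated data, edgeR recovered 171 of 200 genes changed 2-fold with 7 false calls among 14308 genes, and limma 200 of 200 promoters changed 4-fold with 4 false calls among 13699. The simulations gave every gene or promoter the same spread, changed far fewer than were called here, and had no missing intervals. They check that the tests run, and cannot show how often calls on these data are right. The 9 genes, the 7 lists around them and the marker lists were chosen with earlier results of these data known. Beside the 9, the genes named were the 2 largest changes in each direction among those called in each list, and, for each of the 2 members with the highest mean RPKM, the 2 genes with the most similar RPKM. The other subunits of PKA, calcineurin and PP1, and *Gsk3a*, were named after their values were seen. *Spata33* and *Adgre1*, on 2 of the lists, were not analysed here. Promoter sequences came from RefSeq; *Ppp3cc* and *Camk4* are named only. The alternatives tried were other size factors, DESeq2, no filter, limma on log2(RPKM + 1) and log2(RPKM + 0.1), an RPKM minimum of 1, windows of 1 and 5 kb, a −log10 q of at least 5, quantile normalization, a block for the replicate number, and dropping 1 replicate at a time.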

Additional observations from a re-analysis of the deposited data

How the results depend on the processing

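Of the RNA log2 fold changes of the 9 genes under 11 alternatives, 91 kept their direction and side of the threshold, 7 kept the direction but were no longer called, all of them of *Adcy3*, and 1 changed sign (*Ppp3cc*, 0.10 without RS replicate 2, with a range of -0.11 to 0.10 without a replicate). The number of the 9 called was 3 in DESeq2 and in each limma fit on RPKM, and 3 to 4 when a replicate was left out. All genes called numbered 8497, and 6039 to 8654 without a replicate. Of the H3K27ac differences, 69 kept their direction and side of the threshold, 3 were no longer called, all of *Ppp3r2* without a replicate, and 2 became called without RS replicate 1 (*Adcy3* and *Ppp3cc*). The sign changed after quantile normalization for *Adcy3* (0.10), *Ppp1cc* (0.046), *Prkaca* (0.10) and *Prkar1a* (0.086), and for *Adcy10* without PS replicate 1 (-0.25) and without RS replicate 1 (-0.066), with a range of -0.25 to 0.37. Leaving out a replicate gave 0 to 3 of the 9 called for H3K27ac and 523 to 4770 promoters called, in place of 2880. It leaves a lone sample in a group, which is then assumed to vary like the other group. The causes of these changes were not tested. With a −log10 q of at least 5, 7 of the 9 had an interval in both PS replicates, in place of 9, with *Adcy3* and *Camk4* lost. Whether PS and RS of the same number came from the same mouse is not given in the sources used here. Deviations of same-numbered samples correlated at 0.225 for RNA and 0.00257 for H3K27ac, over 2 pairs each. With the replicate number as a block, 8723 genes and 4 of the 9 were called for RNA, and 2136 promoters and 1 of the 9 for H3K27ac. The block took the adjusted p of *Ppp1cc* RNA from 0.0439 to 0.0563. With 2 samples in each group, only large differences relative to the replicate spread can pass, and values of *Adcy3*, read with at most 106 counts, rest on little data.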
